A study of Danio rerio with 3 samples.

Results

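The Pax genes encode transcription factors with a paired DNA-binding domain, and 10 zebrafish members of the family were described here: pax2a, pax2b, pax5 and pax8 of the Pax2/5/8 subgroup, pax3a, pax7a and pax7b of the Pax3/7 subgroup, pax6a and pax6b of the Pax4/6 subgroup, and pax9 of the Pax1/9 subgroup. They were picked out by gene symbol from a list drawn up with earlier results of these data known, and all 10 were found among the 35117 genes of the authors' deposited table. RNA had been sequenced from whole, untreated wild-type embryos at 10 hours post fertilization (hpf), the end of gastrulation, with 2 libraries, and at 6 hpf, the start of gastrulation, with 1 library. The comparison asks which transcripts differ in level between these stages. Each gene had a single RPKM value per stage (read number divided by gene length and by library total), and the 10 hpf value stood for both libraries, so no spread between replicates could be given for any level or difference.

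Pax proteins bind DNA through the paired domain, and the subgroups differ in what follows it. The homeodomain is complete in Pax3/7 and Pax4/6 proteins, shortened in Pax2/5/8 proteins and absent from Pax1/9 proteins. In vertebrate embryos these genes mark territories before organs form: Pax2/5/8 genes the midbrain-hindbrain boundary, the ear placode and the kidney rudiment, Pax3/7 genes the edges of the neural plate, neural crest and muscle progenitors, Pax6 genes the eye, forebrain and spinal cord, and Pax1/9 genes the pharyngeal pouches and the sclerotome. Several members exist as duplicate pairs (the a and b genes) left from the genome duplication of teleost fish.

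Pax RNA as a whole was higher at 10 hpf, and the makeup of the family differed between the stages. Of the 10 genes, 5 were called higher in the authors' deposited table at 10 hpf (pax8, pax3a, pax2a, pax6b and pax6a), 1 was called lower (pax7a) and 4 were not called (pax7b, pax5, pax2b and pax9). A call means an empirical false discovery rate under 0.05 there, with the direction of the authors' log2 fold. Among all its genes, 9.7% were called higher and 19.8% lower, and among the 17494 genes that reached 1 RPKM at either stage 16.3% were called higher and 32.9% lower. At 5 RPKM or more at either stage these shares were 13.9% higher and 36.1% lower over 10692 genes, and 4 members (pax8, pax2a, pax6b and pax3a) reached that level, each through its 10 hpf value, so their calls there add nothing to the count. Summed over the 10 genes, Pax RPKM was 58.7 at 10 hpf and 2.54 at 6 hpf, 23.1-fold higher at 10 hpf. Only 5 members reached 1 RPKM at 10 hpf, the 5 that were called higher, and only pax7a did so at 6 hpf. The median of log2((10 hpf RPKM + 1)/(6 hpf RPKM + 1)) was 0.91 over the 10 members and 0 over all genes. Over all genes at 1 RPKM or more at either stage, a level that 6 members reached, it was 0.14. The median over the members depended strongly on the pseudocount. In whole embryos, more expressing cells and more RNA per cell cannot be told apart.

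**Figure D1:**
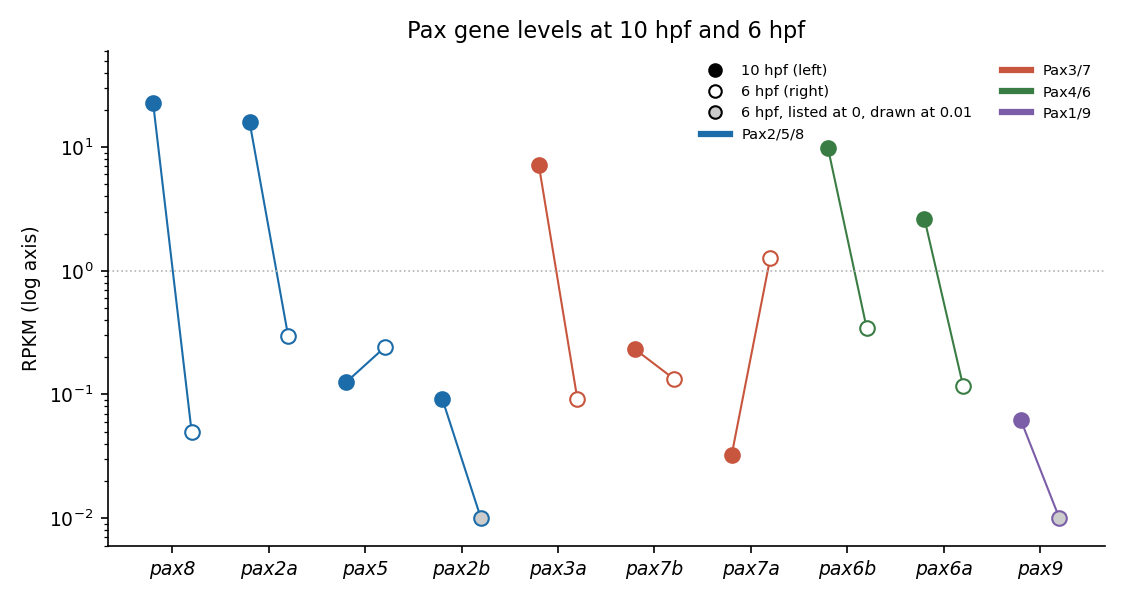
RPKM of the 10 Pax genes on a log axis, with 10 hpf (filled, left) and 6 hpf (open, right) joined by a line and coloured by subgroup; the dotted line marks 1 RPKM, and the values of pax2b and pax9 listed at 0 at 6 hpf are drawn at 0.01. Only pax8, pax2a, pax3a, pax6b and pax6a stand above 1 RPKM at 10 hpf, and only pax7a does at 6 hpf.

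The low values could be read as whole reads. Steps between low RPKM values corresponded to totals of about 23243202 reads at 10 hpf and 16991533 at 6 hpf, so that 1 read in 1 kilobase of gene is 0.0430 RPKM at 10 hpf and 0.0589 RPKM at 6 hpf. With these totals a pair of whole read numbers was found for 99.7% of 9487 low genes, against 11.0% with the 10 hpf total raised by 1%. That shift changed the ratio of the totals, and an error common to both totals was not tested. Below, the read numbers given for a gene are the smallest whole pair that its RPKM values allow, and any common multiple of the pair would give the same values. Intervals on ratios are exact 95% Clopper-Pearson intervals from that smallest pair and cover counting error only, not the spread between embryos or libraries. The markers of gastrula tissues that whole embryos should hold were detected at both stages, at 10.3 RPKM or more at 10 hpf and 2.58 RPKM or more at 6 hpf. In the authors' deposited table tp63 of the epidermis was called higher, at 41.4 RPKM at 10 hpf and 2.58 RPKM at 6 hpf. The mesoderm genes ta (65.5 RPKM at 10 hpf and 232.5 at 6 hpf) and tbx16 (34.4 and 123.2), the endoderm gene sox32 (10.3 and 59.4) and the neural plate gene sox3 (97.1 and 134.5) were called lower, while sox2, sox19a, krt4, gata2a and sox17 were not called. The sox3 call was not kept with folds centred on the median gene, as described below for the lists. The part of such shifts between tissues in the Pax values was not tested. Genes of later tissues were at or near 0, with the photoreceptor gene rho at 0.0277 RPKM at 10 hpf and listed at 0 at 6 hpf. The insulin gene ins was listed at 0 at 10 hpf and had 0.121 RPKM at 6 hpf. That value is above the 6 hpf RPKM of pax6a (0.118), pax3a (0.0921) and pax8 (0.0495). RPKM also depends on gene length, so it sets no common floor for these genes. Their smallest pairs held few reads at 6 hpf, 7 each for pax6a and pax3a and 2 for pax8.

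The Pax2/5/8 subgroup held most of the Pax RNA at 10 hpf. Its 4 members summed to 38.8 RPKM at 10 hpf and 0.588 RPKM at 6 hpf, which was 66.1% of the total of the 10 members at 10 hpf and 23.1% of it at 6 hpf. Both genes called higher in this subgroup, pax8 and pax2a, accounted for nearly all of its 10 hpf sum, while pax5 and pax2b were at or under 0.240 RPKM at both stages.

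The gene pax8 (ENSDARG00000015879) is known for early roles in the otic placode, the pronephros and the thyroid. It had 22.6 RPKM at 10 hpf and 0.0495 RPKM at 6 hpf, making it the most abundant Pax gene at the later stage and the least abundant of the detected members at the earlier one. By level it ranked 3191 of 35117 genes at 10 hpf and 22634 at 6 hpf. The smallest read pair was 1252 reads at 10 hpf and 2 reads at 6 hpf. On that pair the RPKM ratio of 458 had a wide counting interval, from 126 to 3783, set by the 2 reads. For pax8 the authors' deposited table gave a log2 fold of 7.18, and the conservative log2 fold there, which discounts counting error, was 5.50.

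The gene pax2a (ENSDARG00000028148), which is mutated in the no isthmus line and needed for the midbrain-hindbrain boundary, had 16.0 RPKM at 10 hpf and 0.298 RPKM at 6 hpf. These levels were 372 reads per kilobase at 10 hpf and 5.07 at 6 hpf. The ratio was 53.6, with a counting interval of 18.1 to 262 from a smallest pair of 220 reads at 10 hpf and 3 reads at 6 hpf. That pair would belong to a gene of 592 bases, so a multiple of it with a narrower interval is also possible. In the authors' deposited table its log2 fold was 5.03 and its conservative log2 fold 3.97. Levels of pax8 stood 1.42-fold above those of pax2a at 10 hpf, and at 6 hpf the order was the other way, at 0.166 of the pax2a level.

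For pax5 (ENSDARG00000037383), which follows pax2a at the midbrain-hindbrain boundary and later serves in B cells, the values were 0.125 RPKM at 10 hpf and 0.240 RPKM at 6 hpf. A smallest pair of 5 reads at 10 hpf and 7 reads at 6 hpf gave a ratio of 0.522 with an interval of 0.131 to 1.91. On that pair a difference was not detectable at this depth. The duplicate of pax2a, pax2b (ENSDARG00000032578), which acts with it at the same boundary, had 0.0916 RPKM at 10 hpf and was listed at 0 at 6 hpf. A listed 0 was taken as an expected number of up to 3 reads, not as reads that were seen. In a gene with 1 kilobase of counted sequence 3 reads are 0.177 RPKM, and less in a longer one, so no fold was computed. At 10 hpf the pax2a level was 174-fold that of pax2b.

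The Pax3/7 subgroup contained the Pax transcript with the highest RPKM at 6 hpf and the only Pax gene called lower, both of them pax7a. Its 3 members summed to 7.44 RPKM at 10 hpf and 1.49 RPKM at 6 hpf. These sums were 12.7% of the total of the 10 members at 10 hpf and 58.6% at 6 hpf. With pax3b, which is not among the members, the subgroup summed to 9.30 RPKM at 10 hpf and 2.34 RPKM at 6 hpf. The leading gene was pax3a at 10 hpf, with 96.5% of the subgroup's sum, and pax7a at 6 hpf.

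The gene pax3a (ENSDARG00000010192), a regulator of the neural plate border and of neural crest and muscle progenitors, had 7.17 RPKM at 10 hpf and 0.0921 RPKM at 6 hpf. The smallest pair was 746 reads at 10 hpf and 7 reads at 6 hpf. This gave a ratio of 77.9, the second largest after pax8 among the 8 members detected at both stages, with a counting interval of 37.6 to 194. The authors' deposited table listed a log2 fold of 5.39 and a conservative log2 fold of 4.02. By level pax3a ranked 7533 of 35117 genes at 10 hpf and 21741 at 6 hpf.

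The gene pax7a (ENSDARG00000100398) is known for later roles in muscle progenitors and in pigment cells of the neural crest, and it went against the direction of the other called members. It had 0.0323 RPKM at 10 hpf and 1.26 RPKM at 6 hpf. The smallest pair was 7 reads at 10 hpf against 200 at 6 hpf. The level was 39.1-fold lower at 10 hpf, with a counting interval of 18.6 to 98.5. The authors' deposited table listed a log2 fold of −5.36 and a conservative log2 fold of −3.97. This transcript made up 0.0551% of the summed RPKM of the 10 members at 10 hpf and 49.7% at 6 hpf, or 0.0530% at 10 hpf and 36.9% at 6 hpf of the sum over all 15 Pax genes of the table. The 6 hpf value rested on 1 library, and 21.5 reads per kilobase placed it at rank 13987 of 35117 genes.

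The smallest pair of pax7a implied 9314 bases of counted sequence, with 4833 for pax7b and 4475 for pax3a. Each counted length could also be a multiple of the one given, so these lengths do not rank the genes. RefSeq's annotation of the GRCz12tu assembly, a later build than the GRCz10 used for the reads, places 3 long noncoding RNA genes in overlap with pax7a. The same annotation has long noncoding RNA genes in overlap with pax2b (2), pax5 (1), pax6b (1) and pax7b (1), and the protein-coding gene kcnab2b, listed at 0 at both stages, in overlap with pax7b. None of the 3 at pax7a was matched to a gene of the deposited table, and the sources used here do not say whether counting used strand. Their part in the pax7a value was not tested. The protein-coding genes on either side did not follow pax7a: mrps16, a mitochondrial ribosomal protein gene, had 18.9 RPKM at 10 hpf and 19.3 RPKM at 6 hpf and was not called, and park7 was called higher at 2.49 RPKM at 10 hpf and 0.458 RPKM at 6 hpf.

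The duplicate pax7b (ENSDARG00000070818), which acts with pax7a in pigment cells and muscle progenitors, was low at both stages, with 0.231 RPKM at 10 hpf and 0.134 RPKM at 6 hpf. From a smallest pair of 26 reads at 10 hpf and 11 reads at 6 hpf the ratio was 1.73, with an interval of 0.825 to 3.87. A multiple of that pair is also possible, with a narrower interval that need not include 1. The gene was not called. The order within the pair was thus opposite at the 2 stages. At 10 hpf pax7b stood 7.16-fold above pax7a in RPKM, on 26 reads for pax7b and 7 for pax7a, and at 6 hpf pax7a stood 9.43-fold above pax7b.

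Outside the 10 members, the duplicate of pax3a gave a similar picture of unequal partners. For pax3b (ENSDARG00000028348) the level was 1.86 RPKM at 10 hpf and 0.850 RPKM at 6 hpf, and it was not called. The ratio of 2.19 had a counting interval of 1.001 to 5.30 from a smallest pair of 27 reads at 10 hpf and 9 reads at 6 hpf. On that pair the interval excludes 1 but not the factor of 1.52 between the scales described below. The pair would belong to a gene of 623 bases, so a multiple of it with a narrower interval is also possible. At 10 hpf pax3a stood 3.85-fold above pax3b, and at 6 hpf pax3b stood 9.24-fold above pax3a.

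**Figure D2:**
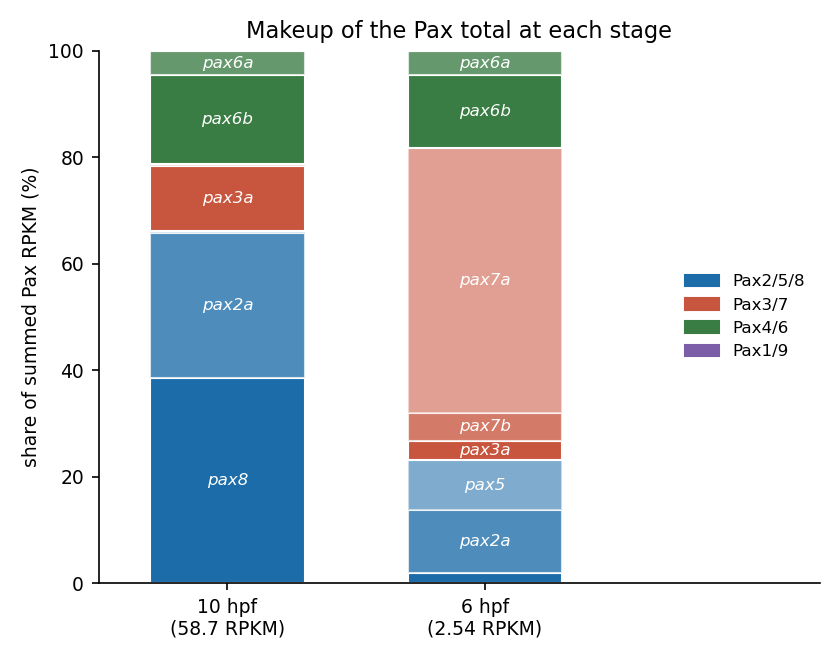
Share of each Pax gene in the summed RPKM of the 10 members at 10 hpf (left bar) and 6 hpf (right bar), coloured by subgroup, with lighter shades for further members of a subgroup; the sum stands under each bar. At 10 hpf pax8 and pax2a hold 38.6% and 27.2% of the total, and at 6 hpf pax7a holds 49.7%.

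Both Pax4/6 members were called higher at 10 hpf, and the order within the pair was the same at both stages. They summed to 12.4 RPKM at 10 hpf and 0.464 RPKM at 6 hpf. Their share of the Pax total was 21.1% at 10 hpf and 18.3% at 6 hpf, the subgroup whose share differed least among those with reads at both stages.

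The gene pax6b (ENSDARG00000045936), known for roles in the eye and the endocrine pancreas, had 9.76 RPKM at 10 hpf and 0.346 RPKM at 6 hpf. With a smallest pair of 1426 reads at 10 hpf and 37 reads at 6 hpf its ratio was 28.2, with bounds of 20.3 to 40.2. On the smallest pairs this was the narrowest interval relative to its ratio among the 8 members with a read pair. Multiples of the other pairs could give narrower ones. The gene pax6a (ENSDARG00000103379), active in the eye field, forebrain and spinal cord, had 2.63 RPKM at 10 hpf and 0.118 RPKM at 6 hpf. A smallest pair of 213 reads at 10 hpf and 7 reads at 6 hpf gave it a ratio of 22.2, with an interval of 10.6 to 56.0 that contains the ratio of pax6b.

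Levels of pax6b stood 3.72-fold above those of pax6a at 10 hpf and 2.93-fold above them at 6 hpf. For pax6b and pax6a the authors' deposited table gave log2 folds of 4.13 and 3.59, and the conservative log2 folds were 2.99 and 1.76. The call of pax6a had an empirical false discovery rate of 0.000599 there, and those of the other 5 called members were listed at 0. In RefSeq's GRCz12tu annotation pax6a overlaps dnajc24, a co-chaperone gene, which was not called at 1.29 RPKM at 10 hpf and 0.731 RPKM at 6 hpf.

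The Pax1/9 subgroup was close to the limit of detection. Its member pax9 (ENSDARG00000053829), a gene of pharyngeal pouches and sclerotome, had 0.0619 RPKM at 10 hpf, or 1.44 reads per kilobase, and was listed at 0 at 6 hpf. The related genes pax1a (ENSDARG00000008203) and pax1b (ENSDARG00000073814), which are not among the 10 members, had 0.113 and 0.130 RPKM at 10 hpf and were listed at 0 at 6 hpf. These values lie under or near what 3 reads give in 1 kilobase, so no change in this subgroup was detectable at this depth. The remaining Pax genes outside the members were as low: pax4, a gene of the endocrine pancreas, had 0.156 RPKM at 10 hpf and was listed at 0 at 6 hpf, and the pax6-related pax10 had 0.0223 RPKM at 10 hpf and 0.0304 RPKM at 6 hpf. None of the 5 Pax genes outside the members was called (0 of 5 in the authors' deposited table).

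**Figure D3:**
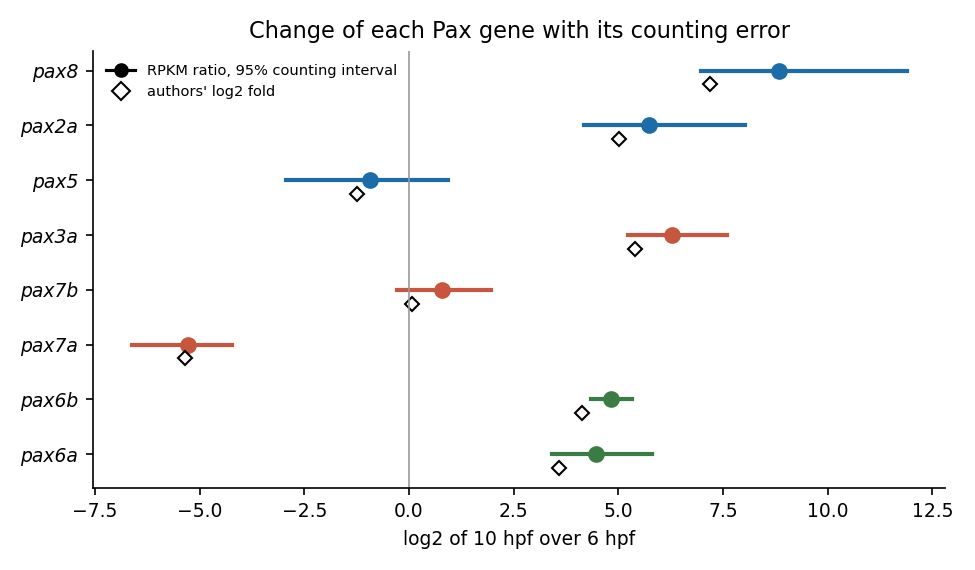
Log2 of 10 hpf over 6 hpf for the 8 Pax genes detected at both stages: circles are RPKM ratios, bars their 95% counting intervals from the smallest read pair, and open diamonds the log2 fold of the authors' deposited table. The intervals of pax8, pax2a, pax3a, pax6b and pax6a lie above 0 and that of pax7a below 0, while those of pax5 and pax7b include 0. Multiples of the pairs would give narrower intervals.

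Each member detected at both stages had the same direction on the RPKM ratio and on the authors' log2 fold. For pax2b and pax9, listed at 0 at 6 hpf, no RPKM ratio was computed. Where genes exceeded 5 RPKM at each stage, the log2 fold of the authors' deposited table ran 0.60 under the log2 RPKM ratio, equal to a factor of 1.52. Its median was −0.50 over the 10692 genes that reached 5 RPKM at either stage. The intervals of pax8, pax2a, pax3a, pax6a, pax6b and pax7a on the RPKM ratio exclude both 1 and this factor. For pax7b the authors' log2 fold was 0.07 against 0.79 for the log2 RPKM ratio, and for pax5 these were −1.24 and −0.94.

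**Figure D4:**
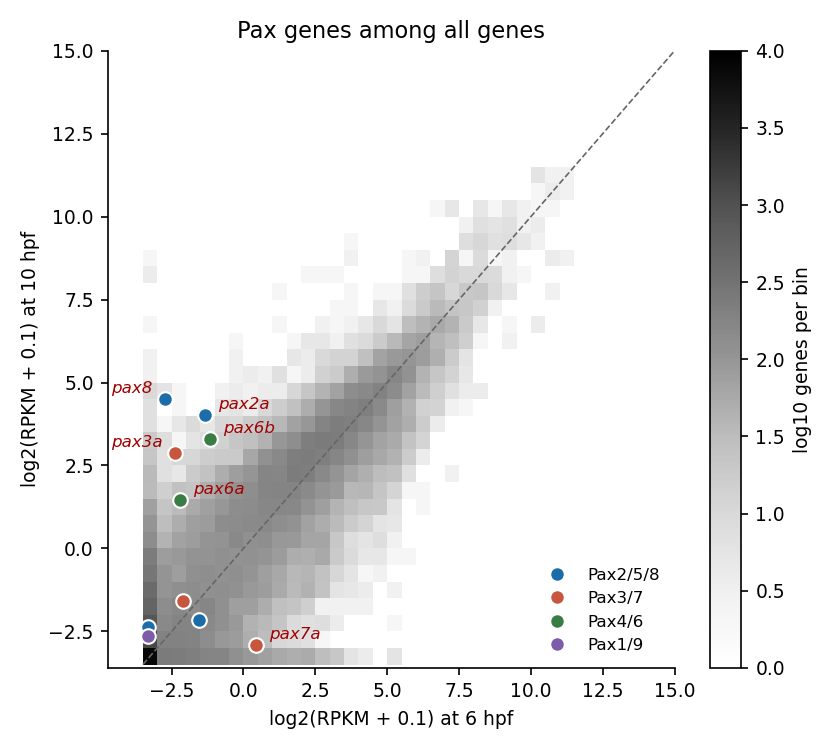
All 35117 genes by log2(RPKM + 0.1) at 6 hpf (horizontal) and 10 hpf (vertical), shaded by the number of genes per bin, with the 10 Pax genes as points coloured by subgroup and the 6 called members labelled; the dashed line marks equal levels. The 5 members called higher lie far above the line, among genes with little signal at 6 hpf, and pax7a lies below it.

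The chromosomal neighbours of the Pax genes held calls in both directions. Of the 20 flanking positions of protein-coding genes in RefSeq's GRCz12tu annotation, 16 were matched to the deposited table, and 4 of these genes were called higher, 3 lower and 9 not called. That is 25.0% higher and 18.8% lower, beside 9.7% and 19.8% over all genes of the authors' deposited table, on only 16 genes. Next to the 5 members called higher, 2 of 7 matched neighbours were called higher and 1 lower, too few genes to set against those shares. Of these 7, 6 had more RPKM at 10 hpf than at 6 hpf. No share of all genes with more RPKM at 10 hpf was computed, so this count shows nothing particular to the neighbours. Over all genes the median log2 RPKM ratio (pseudocount 1) was 0. Over those at 1 RPKM or more, a level that not all 7 neighbours reached, it was 0.14. The 2 called higher were elp4 beside pax6b, an Elongator subunit gene with 0.807 RPKM at 10 hpf and 0.0628 RPKM at 6 hpf, and mpped2 beside pax6a, with 4.24 RPKM at 10 hpf and 1.25 RPKM at 6 hpf. On the other side of pax6a the kidney gene wt1a was not called, at 0.321 RPKM at 10 hpf and listed at 0 at 6 hpf. Beside the barely detected pax9, the homeobox gene nkx2.9 was called higher, with 8.41 RPKM at 10 hpf and a listed 0 at 6 hpf.

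Genes were then counted in 8 lists, for territories of Pax genes and for the network of sine oculis, eyes absent and dachshund homologues. Genes of the territory lists need not work with Pax factors. Together the lists matched 136 genes. Of these, 51 were called higher, 23 lower and 62 not called in the authors' deposited table. With the folds and conservative folds centred on the median gene at 5 RPKM or more, a step that can only remove lower calls, 17 of the 23 lower calls were kept. Without centring, the shares over all genes were 9.7% higher and 19.8% lower. Over genes at 1 RPKM or more at either stage, of which each list held 9 to 19, they were 16.3% higher and 32.9% lower. No centred share was computed over all genes, so the counts kept after centring cannot be set beside these shares. The lists hold 12 to 24 genes each, and differences among them were not tested.

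In the network of sine oculis, eyes absent and dachshund homologues, whose products act with Pax proteins in placodes, eye and muscle, 8 of 18 genes were called higher and 3 lower, of which centring kept 1, and 7 were not called. The forebrain and eye gene six3b had 70.2 RPKM at 10 hpf and 4.45 RPKM at 6 hpf, and six4b had 26.3 RPKM at 10 hpf and 3.69 RPKM at 6 hpf. The coactivator gene eya3 was called lower, at 19.8 RPKM at 10 hpf and 32.8 RPKM at 6 hpf, and this call was not kept after centring.

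The list of the midbrain-hindbrain boundary, where pax2a acts, had 9 of 16 genes called higher, 2 lower (1 after centring) and 5 not. Its symbols eng1a, eng1b, eng2a, eng2b, otx2b and otx1 were not matched, so no engrailed gene was counted. The forebrain and midbrain gene otx2 had 56.8 RPKM at 10 hpf and 7.46 RPKM at 6 hpf. The POU factor gene pou5f3, which is required for pax2a at this boundary in zebrafish, was called lower, at 45.7 RPKM at 10 hpf and 783 RPKM at 6 hpf. Among placode genes 6 of 16 were called higher, with 2 lower (1 after centring) and 8 not called. The homeobox gene dlx3b, which with foxi1 is needed for the ear placode where pax8 is an early gene, had 91.9 RPKM at 10 hpf and 6.66 RPKM at 6 hpf. The placode list gene sall4 was called lower, at 138.6 RPKM at 10 hpf and 289.7 RPKM at 6 hpf.

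At the neural plate border and in neural crest, the territory of pax3a, 7 of 24 genes were called higher, 3 lower and 14 not. The border gene zic1 had 24.5 RPKM at 10 hpf and 0.156 RPKM at 6 hpf, while the crest gene foxd3 was called lower at 14.0 RPKM at 10 hpf and 26.3 RPKM at 6 hpf. In paraxial mesoderm and muscle, 9 of 18 were called higher, with 4 lower (3 after centring) and 5 not called. The myogenic gene myf5 had 35.2 RPKM at 10 hpf and 0.998 RPKM at 6 hpf, while tbx16 was called lower at 34.4 RPKM at 10 hpf and 123.2 RPKM at 6 hpf.

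Of 15 genes of the eye field and forebrain, where pax6 genes act, 8 were called higher, 0 lower and 7 not. The LIM homeobox gene lhx2b, needed for eye formation, had 9.29 RPKM at 10 hpf and 0.0640 RPKM at 6 hpf. At a similar 10 hpf level hesx1 was not called, with 9.42 RPKM at 10 hpf and 7.85 RPKM at 6 hpf. The intermediate mesoderm and pronephros list, a territory of pax2a and pax8, had 2 of 17 genes called higher, 6 lower and 9 not, and its early gene lhx1a was called lower at 4.71 RPKM at 10 hpf and 18.0 RPKM at 6 hpf. The list gene hoxb5b was called higher, at 14.7 RPKM at 10 hpf and listed at 0 at 6 hpf. In pharyngeal endoderm and sclerotome, the territory of pax9, 2 of 12 were called higher and 3 lower, of which centring kept 2. The other 7 were not called. There foxa1 was called higher at 2.55 RPKM at 10 hpf and listed at 0 at 6 hpf. The gene gata6 was called lower at 43.4 RPKM at 10 hpf and 70.0 RPKM at 6 hpf, a call that centring did not keep.

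**Figure D5:**
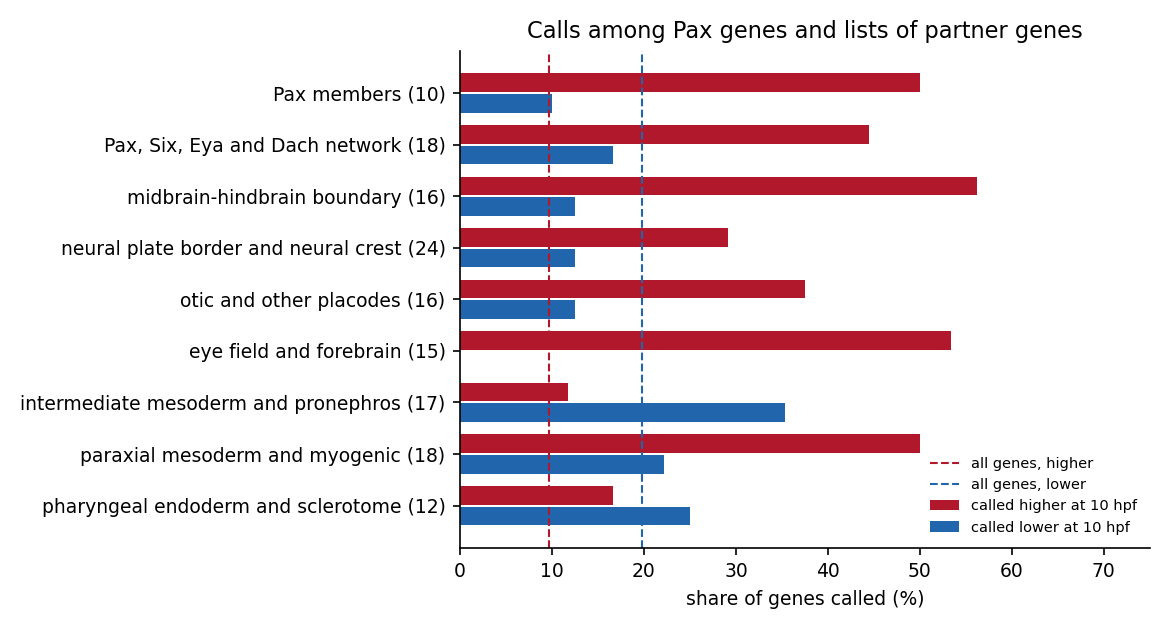
Share of genes called higher (red) and lower (blue) at 10 hpf in the authors' deposited table. Shown are the 10 Pax genes and 8 lists of network or territory genes, with the number of genes in brackets. Dashed lines mark the shares over all genes. Over genes at 1 RPKM or more at either stage, not drawn, the shares were 16.3% higher and 32.9% lower. The midbrain-hindbrain boundary list, without its unmatched engrailed genes, has 56.3% called higher, and the intermediate mesoderm list 35.3% called lower.

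Among the 136 list genes, those closest to each called Pax gene in log2(RPKM + 0.1) over both stages were as follows. The values of pax8 were nearest to those of the somite gene meox1, with 22.6 RPKM at 10 hpf and 0.0425 RPKM at 6 hpf, a distance of 0.069 log2 units. Both pax6b and pax2a were nearest to foxc1b, a forkhead gene of paraxial mesoderm with 10.2 RPKM at 10 hpf and 0.301 RPKM at 6 hpf, at distances of 0.17 and 0.64. For pax3a the nearest gene was lhx2b at 0.43, and for pax6a it was the forebrain gene nkx2.4a at 0.41. The nearest gene to pax7a was wt1b, called lower with 0.0890 RPKM at 10 hpf and 0.822 RPKM at 6 hpf, at a distance of 0.76. With 2 values per gene, closeness says only that level and change were alike on this scale. The added 0.1 RPKM damps differences between very low values, so RPKM ratios of near genes can differ. That of lhx2b was 145, beside 77.9 for pax3a.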

How the data were processed

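Total RNA of whole zebrafish embryos was sequenced on libraries made by a standard Illumina protocol, per the labels; whether the 10 hpf replicates came from separate clutches is not stated. Reads were processed with TopHat2 2.1.1 and build GRCz10, per the submitters' processing notes; no read counter, annotation, strand setting or filter is named in the sources used here. The authors deposited RPKM for 6 hpf and, as 1 value over 2 libraries, for 10 hpf, per the file headers. The log2 fold, the conservative log2 fold (GFOLD, setting 0.01) and the empirical false discovery rate, treated like a p-value, were also deposited by the authors.

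Members were matched by symbol, and lists by the deposited symbol or that of a gene name table (27000 identifiers); 16 of 153 listed symbols were not matched. Members and lists were chosen with earlier results of these data known. Named genes were all Pax genes and, per list, the most abundant called or not called genes by a fixed rule, of which only some are printed. Of the not called genes so picked, only hesx1 is printed. The neighbours elp4, mpped2, wt1a, nkx2.9, dnajc24, mrps16 and park7, and the tissue markers, were named after their values had been seen or as checks.

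The 6 hpf total was fitted as the number of reads for which low 5S rRNA values are whole reads at whole gene lengths, within 0.003 bases. Tried as up to 6 reads at lengths of 110 to 125 bases, 30 of 49 such values fitted. The 10 hpf total followed from the most frequent ratio of RPKM values between stages (1.368, in 342 genes). Read pairs were searched at lengths of 200 to 15000 bases with a relative tolerance of 5e-06 beyond rounding, in genes under 30 RPKM with 1 value under 1 RPKM. The search was tested on simulated data. No sample-level test could be made, so calls are the authors'. Python 3.11.15, pandas 2.3.3, NumPy 2.4.6 and SciPy 1.17.1 were used. Alternatives were other call thresholds, minimum levels, pseudocounts and scalings.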

Additional observations from a re-analysis of the deposited data

How the results depend on the processing

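The main counts were 5 Pax genes called higher and 1 called lower. They were the same at a false discovery rate under 0.01 and with an absolute log2 fold of 1 or more. Over all 15 Pax genes, a set added after seeing the data, they were also the same, but added genes cannot lower a count. Called higher were thus 5 of 15 genes, beside 5 of the 10 members. The counts were also the same with folds centred on the median gene, which could remove only the lower call. They did not differ with members at 1 RPKM or more, a level each called gene reached only at the stage where it was high. Neither centring nor this level shows that the higher calls are stable. With members at 5 RPKM or more, 4 were called higher and 0 lower, because pax6a and pax7a lie under that level. The median log2 ratio of 0.91 moved to 2.29 and 0.30 with pseudocounts of 0.1 and 5, to 2.47 on the authors' log2 fold, to 0.82 when centred, to 2.95 over members at 1 RPKM or more and to 0.18 over all 15 Pax genes. Dividing 10 hpf values by the factor of 1.52 gave sums of 25.6 RPKM for Pax2/5/8, 4.90 for Pax3/7, 8.17 for Pax4/6 and 0.0408 for Pax1/9. Adding the other Pax genes, an alternative chosen after seeing the data, gave 9.30 for Pax3/7, 12.6 for Pax4/6 and 0.305 for Pax1/9 at 10 hpf. No paired analysis was possible because the deposited values are not per library and 6 hpf has 1 library; leaving out each 10 hpf replicate was not run for the same reason. Depth limits statements on pax2b, pax5, pax7b and pax9, and the smallest pair of pax8 has only 2 reads at 6 hpf.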
